A study of Danio rerio x Danio aesculapii and Danio rerio x Danio albolineatus and Danio rerio x Danio kyathit with 48 samples.

Results

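Xanthophore-enriched cells were compared with unenriched skin cells in adults of 4 Danio hybrids, and the comparison used 24 of the 48 libraries of the series, 12 xanthophore-enriched and 12 unenriched, chosen by their labels. Every hybrid had a Danio rerio (zebrafish) mother, and each hybrid is called here by its father's species, D. aesculapii, D. kyathit, D. albolineatus or D. nigrofasciatus. The skin came from adults of hybrid lines with fluorescent reporters, was dissociated and, for the xanthophore-enriched libraries, was sorted for aox5:mem-EGFP, a membrane-bound green protein under the promoter of aox5, a xanthophore gene. The unenriched libraries are labelled whole skin, and each hybrid has 3 libraries of each kind, numbered 3, 4 and 5, a number that the labels also give as the batch. The age and sex of the fish, the reporter carried by the fish of the unenriched libraries, and whether each library came from a separate fish are not stated in the sources used here, so a p-value reflects only how far these libraries differ, and that spread may be technical. PolyA RNA was amplified with a SMART-seq2 kit, and for every gene the values of the D. rerio and the paternal allele were added.

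Xanthophores are the yellow to orange pigment cells of fish skin, and they derive from the neural crest as do the black melanophores and the reflective iridophores. They colour the skin with pteridines, which are made from GTP, and with carotenoids, which are taken up from the diet and stored in lipid droplets. A sort on 1 reporter leaves other skin cells behind in unknown number. In bulk libraries, fewer cells of a type and less RNA per cell cannot be told apart.

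Values are the deposited ones, scaled by the authors, and compare the same gene between libraries, not genes with each other. A gene was tested where its mean value over both kinds stood for at least 5 molecules, estimated as described under the processing. Members of a gene list that are low in both kinds were not tested, so counts over a list describe the members that passed this filter, not the whole list. Differences are log2 of the value plus 20, sorted minus skin, with their standard error (SE), taken within each hybrid and then averaged over the 4 hybrids. A gene is said to have risen or fallen where limma's Benjamini-Hochberg adjusted p was under 0.05. The summed values were 5173935 to 12500648 in the sorted and 5556009 to 7628639 in the skin libraries, but the estimated number of molecules was 37697 to 139042 in the sorted libraries (median 89046.5) and 104787 to 996133 in skin (median 504506). Genes above 0 numbered 12982 to 16579 in the sorted libraries and 16651 to 18665 in skin.

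Some libraries stood apart from their labels. The sorted aesculapii library 3 resembled skin libraries (median Spearman correlation 0.67 over 3008 genes) more than the other sorted libraries (median 0.51), and its 13 tested xanthophore marker genes were a median 0.75 (log2) above its own skin mean, against 1.36 to 3.86 in the other 11 sorted libraries. In it, 24 of 29 tested keratinocyte genes were above the skin mean. The sorted albolineatus library 3 had the highest melanophore and iridophore marker levels of all sorted libraries, a median 3.40 and 4.16 above skin. Among the skin libraries, kyathit 5 and nigrofasciatus 3 had high melanophore genes, with values of 7217 and 5218 for tyrp1b, a melanin synthesis gene, where the other skin libraries had 56 to 2299. Where leaving these libraries out changed a call or a count by over 1.5 times, both values are given. The sorted aesculapii library 5 had the highest summed value, 12500648, where the other sorted libraries had 5173935 to 8185611. In it, 74 of 77 ribosomal protein and 61 of 68 nuclear respiratory chain genes were above the skin mean. Without it, 131 of 132 listed or named genes called in the mean stayed called. The part of its scaling in the aesculapii differences was not tested.

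aox5, an aldehyde oxidase gene and the source of the reporter's promoter, checks the sort. The sorted libraries 3, 4 and 5 had values of 1203, 4512 and 1029 in aesculapii, 932, 3391 and 1090 in albolineatus, 1385, 1018 and 2381 in kyathit, and 6184, 5098 and 5384 in nigrofasciatus. The skin libraries had 1160, 1098 and 118 in aesculapii, 936, 455 and 397 in albolineatus, 160, 213 and 840 in kyathit, and 765, 573 and 363 in nigrofasciatus. All 12 sorted libraries were above the mean of their own skin libraries, but the groups overlapped in aesculapii and albolineatus. The mean difference was 2.31 ± 0.44 (SE, limma, adjusted p = 0.000244), and this call was lost without library 4 of every group.

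Of 3008 genes tested in the mean of the 4 hybrids, 473 (15.7%) passed the test, 287 higher (9.54%) and 186 lower (6.18%) in the sorted libraries. Of the 287 genes that rose, 264 (92%) were higher in each of the 4 hybrids, and of the 186 that fell, 125 (67.2%) were lower in each. Over all tested genes these shares were 18.1% and 13.1%, and choosing genes by the mean itself raises them. The median difference of all tested genes was −0.036, and it moved to 0.216 when the libraries were rescaled with TMM factors and to 0.108 with median-ratio size factors. The split then became 670 higher and 108 lower (86.1% higher) and 453 and 132 (77.4%), against 60.7% higher as reported, so the counts of lower genes depend on the scaling. Without library 4 of every group, the number called was 64, without the sorted aesculapii library 4 alone 268, and without skin library 3 or 4 of kyathit alone 286 and 307. Without the sorted aesculapii 3 and albolineatus 3 libraries it was 424, and 355 of these were among the 473.

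The genes that rose most, leaving out the pigment-cell marker lists, were metabolic enzymes, transporters and several genes known only by clone names. CABZ01021592.1 had sorted values of 6615, 20124 and 31630 in aesculapii, 11732, 49309 and 40723 in albolineatus, 21623, 16112 and 29720 in kyathit, and 32803, 21288 and 45523 in nigrofasciatus. Its skin values were 3383, 7594 and 1460 in aesculapii, 2545, 1006 and 852 in albolineatus, 1085, 2317 and 6943 in kyathit, and 1376, 2599 and 5269 in nigrofasciatus. The groups overlapped only in aesculapii, and the mean difference was 3.31 ± 0.45 (limma, adjusted p = 3.59e-06), a difference of 3.00, 3.2 and 3.79 within batches 3, 4 and 5. For zgc:110339 the sorted libraries were at 5215 to 34581 (median 17842) and skin at 651 to 6075 (median 1863). In that gene every sorted library was above every skin library of its hybrid, and the difference was 2.94 ± 0.31 (adjusted p = 1.16e-08).

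**Figure D1:**
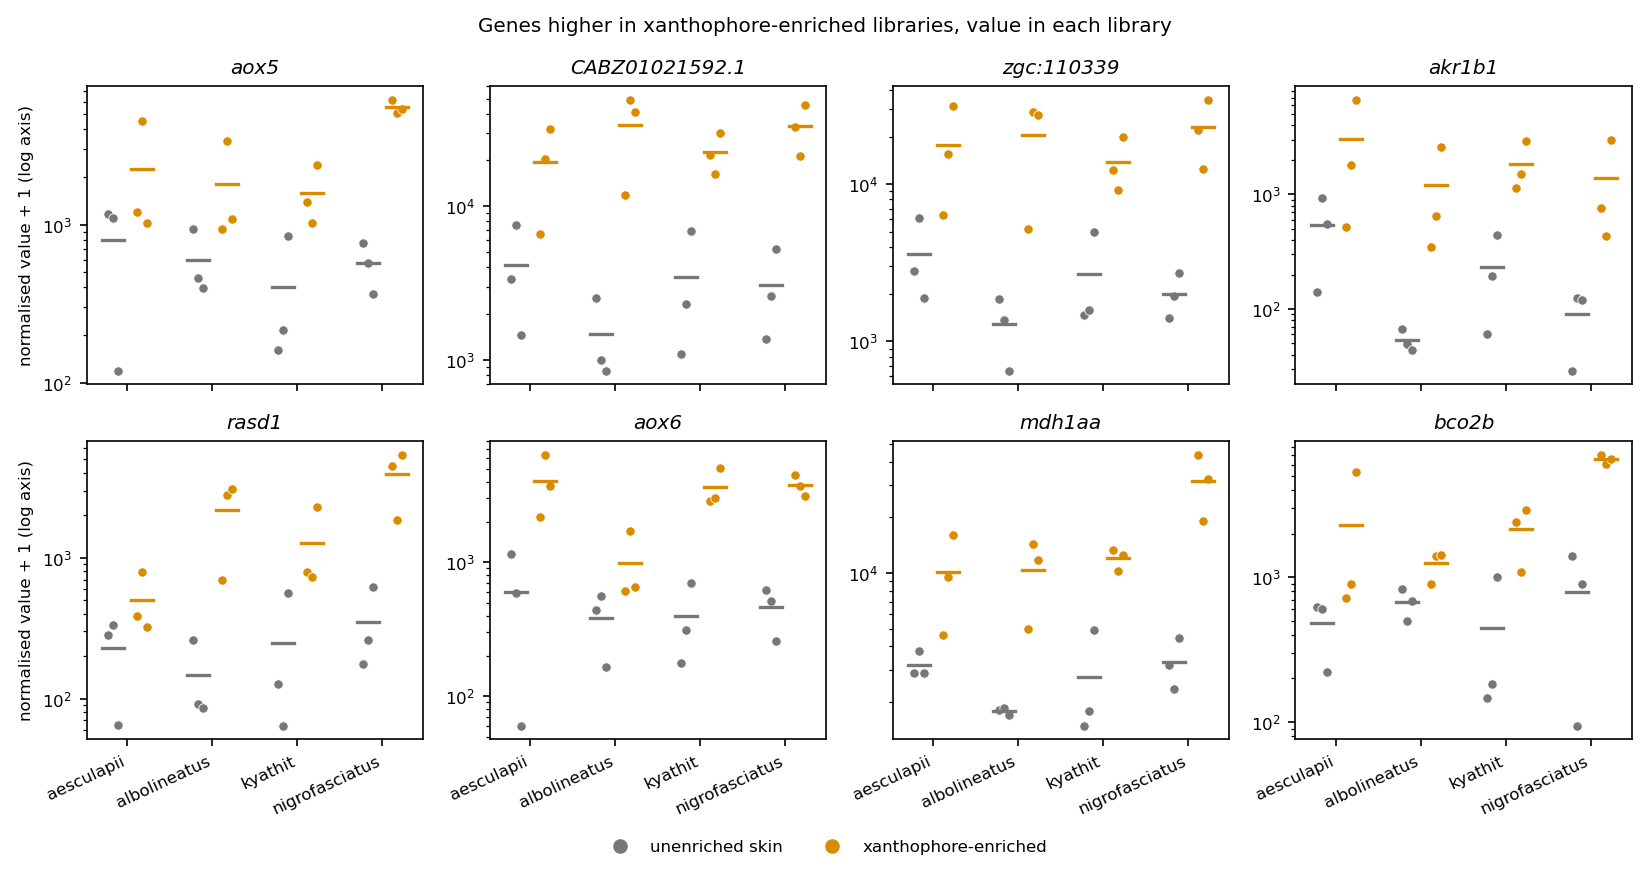
Summed values plus 1 (log axis) of 8 genes by hybrid, with grey points for the 3 skin libraries, orange points for the 3 sorted libraries and bars for the means of the 3. In zgc:110339, aox6, mdh1aa and bco2b no sorted library reaches down to the skin libraries of its hybrid, while aox5 overlaps in aesculapii and albolineatus.

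mdh1aa, which codes for a cytosolic malate dehydrogenase, had the smallest p-value of the genes named by size. Its sorted values were 4593, 9547 and 16132 in aesculapii, 4950, 14394 and 11697 in albolineatus, 13366, 10238 and 12540 in kyathit, and 43491, 19083 and 32232 in nigrofasciatus. Its skin values were 2887, 3768 and 2876 in aesculapii, 1821, 1847 and 1711 in albolineatus, 1485, 1799 and 4914 in kyathit, and 3156, 2355 and 4434 in nigrofasciatus. All 4 hybrids were without overlap, with a mean difference of 2.34 ± 0.22 (limma, adjusted p = 4.72e-10) and 2.26, 2.45 and 2.36 within batches 3, 4 and 5. Its call held under every processing alternative tried. Among 19 tested genes of the citric acid cycle and the shuttles around it, mdh1aa alone passed, and the list's median was 0.17 against −0.04 over all tested genes. With TMM factors 4 of them passed, and without the sorted aesculapii library 3 alone 2.

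Several other enzymes and transporters rose. akr1b1, an aldose reductase gene, had sorted values of 348 to 6727 (median 1327.5) and skin values of 28 to 928 (median 121), a difference of 2.89 ± 0.51 (limma, adjusted p = 0.0001). iah1, named for a yeast esterase, was at 310 to 6181 (median 1130.5) against 63 to 395 (median 142.5), a difference of 2.53 ± 0.34 (adjusted p = 9.81e-07). cax1, of a cation/proton exchanger, rose by 2.46 ± 0.41 (adjusted p = 4.5e-05), and slc22a7a, of the organic anion transporter family, by 2.43 ± 0.45 (adjusted p = 0.000244). hsd11b1la, of the hydroxysteroid dehydrogenase family, rose by 1.74 ± 0.36 (adjusted p = 0.000519), with no overlap in any hybrid. These calls held when any 1 library was left out, with adjusted p of at most 0.00731 for akr1b1, iah1, cax1 and slc22a7a (hsd11b1la was not in that series of fits).

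rasd1, a Ras-like GTPase gene induced by glucocorticoids in mammals, had sorted values of 319 to 5367 (median 1318) and skin values of 63 to 617 (median 217), a difference of 2.77 ± 0.39 (limma, adjusted p = 3.47e-06). The aesculapii libraries differed least, with 385, 785 and 319 sorted and 282, 333 and 64 in skin. tp53inp2, which in mammals takes part in autophagy, was at 107 to 2340 (median 523) in the sorted libraries and 19 to 317 (median 69) in skin, with no overlap within any hybrid and a difference of 2.58 ± 0.36 (adjusted p = 1.5e-06). prnpb, a prion protein gene, rose by 2.25 ± 0.30 (adjusted p = 9.81e-07), mon1ba, whose yeast and mammalian relatives activate the GTPases of late endosomes, by 2.04 ± 0.35 (adjusted p = 5.23e-05), and rab34b, of the Rab GTPase family, by 2.06 ± 0.34 (adjusted p = 2.79e-05).

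Genes without overlap in all 4 hybrids, every sorted above every skin library of its own hybrid, numbered 14 (0.465% of those tested). Within single hybrids the share of tested genes with every sorted above every skin library was 7.69% in aesculapii, 20.2% in albolineatus, 8.06% in kyathit and 12.3% in nigrofasciatus, and the share with every one below 1.08%, 23.4%, 8.12% and 6.16%. The 14 were aox6, bco2b, FP085398.1, hsd11b1la, mdh1aa, mt-nd1, rab11fip1b, rab34b, si:dkey-126g1.9, si:dkey-73n8.3, spra, tp53inp2, zgc:110339 and zgc:92161. The opposite order, every sorted below every skin library in all 4 hybrids, held for 2 genes (0.0665%), ets1 and map3k8. ets1 codes for a transcription factor of lymphocytes and endothelium, with 125 to 796 (median 427.5) in the sorted libraries and 493 to 1400 (median 1178.5) in skin. map3k8, which codes for a kinase of inflammatory signalling in mammals, had 65 to 693 (median 238.5) against 343 to 2443 (median 1105), a difference of −1.86 ± 0.34 (limma, adjusted p = 0.000103).

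The pteridine list, of enzymes that make pteridines from GTP or are tied to that pathway, had 19 genes, 17 in the files and 7 tested. Of these 6 rose and none fell, with a median of 2.75. gch2, the GTP cyclohydrolase of the pathway's first step, was at 6335 to 53934 (median 19984) in the sorted libraries and 747 to 8461 (median 2351.5) in skin, a difference of 2.85 ± 0.49 (limma, adjusted p = 0.000105). The sepiapterin reductase genes spra and sprb rose by 2.42 ± 0.28 (adjusted p = 2.16e-08) and 2.96 ± 0.49 (adjusted p = 5.23e-05). aox6, an aldehyde oxidase gene beside aox5, had sorted values of 2176, 6347 and 3694 in aesculapii, 614, 1703 and 652 in albolineatus, 2867, 3043 and 5049 in kyathit, and 4515, 3717 and 3128 in nigrofasciatus. Its skin values were 1147, 590 and 59 in aesculapii, 436, 556 and 165 in albolineatus, 177, 311 and 703 in kyathit, and 619, 515 and 256 in nigrofasciatus. The albolineatus libraries came closest to each other, and the mean difference was 2.75 ± 0.33 (adjusted p = 7.07e-08). pah, phenylalanine hydroxylase, was the member that did not pass, at −0.16.

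The carotenoid list had 22 genes, 20 in the files and 6 tested, of which 5 rose and none fell, with a median of 2.58. scarb1, the receptor through which zebrafish xanthophores take up carotenoids, rose by 1.92 ± 0.31 (limma, adjusted p = 1.75e-05), but in aesculapii its difference was 0.11, with sorted values of 431, 817 and 371 and skin values of 692, 849 and 143. plin6, a perilipin of the droplet surface in fish, rose by 2.85 ± 0.34 (adjusted p = 1.71e-07), and bscl2l, of the seipin family of droplet proteins, by 2.98 ± 0.44 (adjusted p = 1.44e-05). A separate list of lipid droplet and lipid synthesis genes had 5 tested, of which these 2 rose and none fell, with a median of −0.59. Its members acsl4a, acsl4b and srebf2 did not pass. With the replicate block acsl4a was called lower (−0.90, limma, adjusted p = 0.0346). The carotenoid cleavage enzyme genes also rose, bco1 by 2.90 ± 0.40 (adjusted p = 2.44e-06) and bco2b by 2.32 ± 0.37 (adjusted p = 3.28e-05). bco2b had sorted values of 905, 1404 and 1427 and skin values of 823, 498 and 686 in albolineatus, against 7008, 6035 and 6587 and 1402, 93 and 895 in nigrofasciatus. Its differences were 1.15 in aesculapii, 0.97 in albolineatus, 3.14 in kyathit and 4.01 in nigrofasciatus, and limma's F test among hybrids gave an adjusted p of 0.861.

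Of the purine genes tested, few passed. uraha, whose enzyme acts in urate breakdown, rose by 2.90 ± 0.33 (limma, adjusted p = 2.16e-08), with sorted values of 255 to 4961 (median 2162) and skin values of 76 to 965 (median 235.5). Its difference was largest in albolineatus, 4.59, where the sorted libraries had 1800, 3558 and 3419 and skin 225, 76 and 79, and smallest in aesculapii, 1.04, where they overlapped. Of 7 tested purine salvage and breakdown genes 1 rose, uraha, and 1 fell, ampd3b, an AMP deaminase gene, by 1.11 on the log2 scale. The ampd3b call was lost without the sorted library 4 of aesculapii or of nigrofasciatus, with adjusted p up to 0.0901, and with TMM factors 3 of the 7 rose and none fell. Leaving out 1 of 6 single libraries (skin aesculapii 4, sorted or skin albolineatus 4, skin kyathit 5, sorted or skin nigrofasciatus 3) gave 2 to 3 that rose. Of 10 tested purine synthesis genes 2 rose, paics, of 2 steps of the ring's synthesis, by 1.90 ± 0.27 (adjusted p = 2.13e-06) and shmt1, a serine hydroxymethyltransferase gene, by 0.82. The medians of the salvage and synthesis lists were 0.52 and 0.09. Over all genes tested in the mean, 9.54% rose and 6.18% fell, so counts of 1 or 2 say little about lists this short.

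Among 17 xanthophore markers, 13 were tested and 12 rose, with a median of 2.62. Only atp1a1b, a sodium pump gene, did not pass, at −0.48. The list shares gch2, sprb, scarb1, bco1, plin6, bscl2l and uraha with the genes given above, so it is no separate support. It also holds aox5, whose promoter drove the reporter of the sort. pax7b, a transcription factor gene of the xanthophore lineage, was at 301 to 5100 (median 1319) in the sorted libraries and 55 to 347 (median 189.5) in skin, a difference of 2.62 ± 0.37 (limma, adjusted p = 2.13e-06). csf1ra, the receptor that zebrafish xanthophores need, rose by 1.71 ± 0.31 (adjusted p = 0.000133), with 103 to 2497 (median 378) against 17 to 281 (median 131.5). slc2a15a and slc2a11b, of the sugar transporter family, rose by 1.79 ± 0.38 (adjusted p = 0.000815) and 2.43 ± 0.42 (adjusted p = 0.0001). Within batches 3, 4 and 5 the list's median was 2.02, 2.56 and 3.26.

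**Figure D2:**
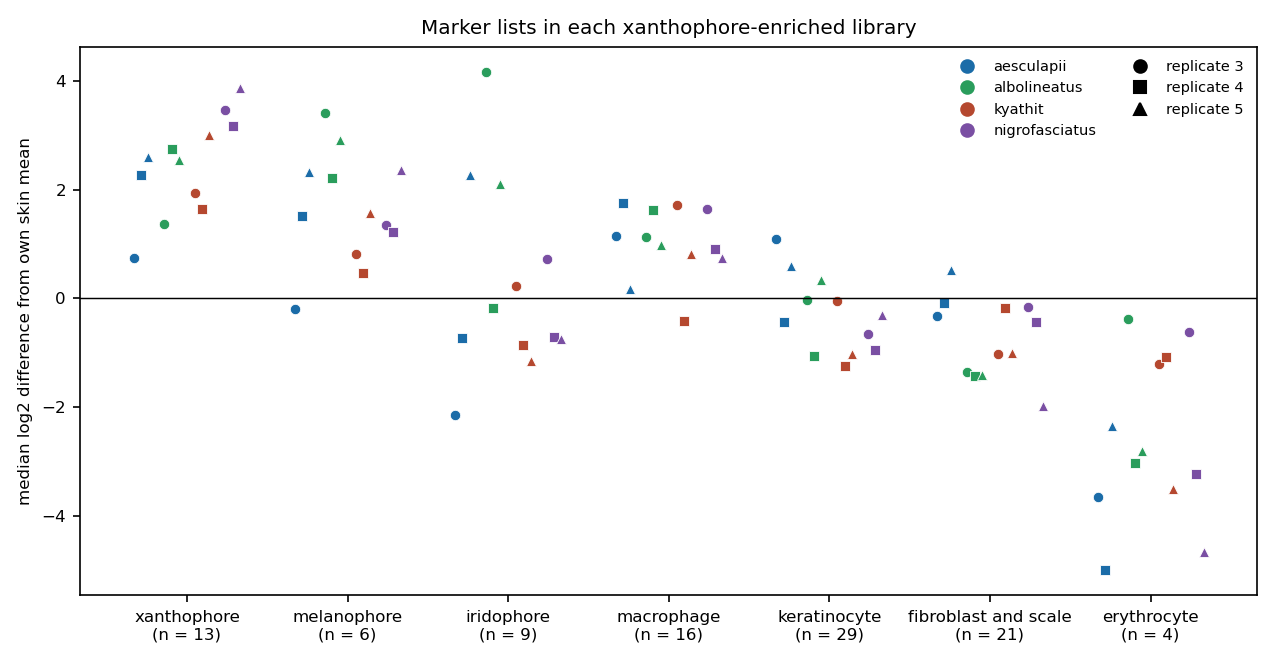
Median log2 difference of each sorted library from its own hybrid's mean skin, for tested marker genes of 7 cell types (13 xanthophore, 6 melanophore, 9 iridophore, 16 macrophage, 29 keratinocyte, 21 fibroblast and scale, 4 erythrocyte genes), with the hybrid by colour and the replicate by symbol. Xanthophore genes lie above 0 in all 12 libraries and erythrocyte genes below 0 in all 12, and iridophore genes run from −2.14 to 4.16.

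Markers of the other pigment cells were not all low. Of 17 melanophore markers 16 were in the files and 6 tested, and 4 rose, with the list's median at 1.79. The 4 were trpm1b, a cation channel gene (2.0 ± 0.33, limma, adjusted p = 3.53e-05), mc1r, the melanocortin receptor (2.06 ± 0.41, adjusted p = 0.000408), mlpha, of pigment granule transport (2.05 ± 0.38, adjusted p = 0.00015), and gpr143, of pigment granule biogenesis (1.59 ± 0.28, adjusted p = 8.85e-05). The melanin synthesis gene tyrp1b and the melanosome matrix gene pmela did not pass, at 0.58 and 0.27, and were at 0.92 (limma, adjusted p = 0.446) and 0.69 (adjusted p = 0.611) without the skin libraries kyathit 5 and nigrofasciatus 3. Without these the melanophore list had 4 rises and a median of 1.89, and the iridophore list 1 rise and a median of 0.53. Without the sorted aesculapii 3 and albolineatus 3 libraries the melanophore list had 4 rises and a median of 1.97, and the iridophore list none and a median of 0.42. The summed melanophore list took 0.0243% to 0.384% of the values in the sorted libraries and 0.012% to 0.238% in skin, and tyrp1b and pmela were above 0 in every sorted library, at 44 to 7584 and 66 to 5363. Of 9 tested iridophore markers none rose or fell (1 rose with TMM factors, or without any 1 of 4 single libraries), with a median of 0.18 and a sum of 0.0413% to 1.73% in the sorted and 0.0489% to 1.1% in skin libraries. The part of the melanophore and iridophore RNA in these differences was not tested.

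The same sorted libraries were also set against the mean of the melanophore- and iridophore-enriched libraries of each hybrid. That contrast shares the sorted xanthophore libraries with the skin contrast, so its values are given side by side and are no independent support. The melanophore-enriched libraries held xanthophore marker RNA too. The summed list took 0.507%, 0.324% and 0.81% of them in aesculapii, against 0.216%, 0.709% and 0.731% of the xanthophore-enriched libraries. In nigrofasciatus it took 0.167%, 0.358% and 0.693% against 1.27%, 1.15% and 2.4%. The ranges also overlapped in albolineatus but not in kyathit. Which cells gave the RNA behind small differences in this contrast was not tested. Of 3487 genes tested, 635 (18.2%) passed, 338 higher (9.69%) and 297 lower (8.52%) in the xanthophore-enriched libraries. At an unadjusted p under 0.05 there were 1035 (29.7%). Without the sorted aesculapii library 3 or 4 the number called was 411 and 414. aox6 differed by 3.44 (limma, adjusted p = 2.61e-09), bco1 by 3.02 (adjusted p = 1.09e-06), CABZ01021592.1 by 2.96 (adjusted p = 4.44e-06), slc22a7a by 2.72 (adjusted p = 3.42e-05), cax1 by 2.51 (adjusted p = 1.87e-05) and zgc:110339 by 2.2 (adjusted p = 7.26e-07). Against skin these 6 differed by 2.75, 2.90, 3.31, 2.43, 2.46 and 2.94. For uraha and paics the pigment-cell contrast was 0.59 (adjusted p = 0.176) and 0.52 (adjusted p = 0.145), against 2.90 and 1.90 over skin. mon1ba differed by 0.09 (adjusted p = 0.893) and rab34b by −0.21 (adjusted p = 0.709), against 2.04 and 2.06 over skin. trpm1b and mc1r, which rose over skin, were lower than in the other pigment-cell libraries, at −1.61 (adjusted p = 7.49e-05) and −1.29 (adjusted p = 0.00909). Of 12 tested melanophore markers 7 were lower in that contrast, and of 14 iridophore markers 13.

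All 13 protein-coding genes of the mitochondrial genome were tested, and all 13 rose over skin, with a median of 1.19. They code for subunits of the respiratory chain and ATP synthase. Their summed value took 2.34% to 10.8% of the sorted libraries (median 5.93%) and 1.14% to 5.64% of skin (median 2.57%). mt-nd1, a complex I subunit gene, had sorted values of 4029, 8986 and 11312 in aesculapii, 1806, 5104 and 1903 in albolineatus, 5588, 4067 and 1913 in kyathit, and 8070, 3271 and 1473 in nigrofasciatus. Its skin values were 3388, 3390 and 3808 in aesculapii, 1776, 904 and 805 in albolineatus, 1414, 1890 and 1806 in kyathit, and 1173, 1342 and 998 in nigrofasciatus. No sorted library overlapped the skin of its hybrid, although the margins in albolineatus and kyathit were narrow, and the difference was 1.13 ± 0.26 (limma, adjusted p = 0.00176). mt-co2, a cytochrome oxidase subunit gene, rose by 1.32 ± 0.22 (adjusted p = 3.53e-05). By hybrid the list's median was 0.86 in aesculapii, 1.58 in albolineatus (13 of 13 called), 1.09 in kyathit and 1.28 in nigrofasciatus. Within batches 3, 4 and 5 it was 1.05, 1.56 and 0.89. mt-nd4l lost its call without the sorted aesculapii library 4 (adjusted p = 0.107). Without library 4 of every group none of the 13 was called.

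Nuclear genes of the respiratory chain, a list added after values were seen, moved less. Of 91 genes 68 were tested, 20 rose and none fell, with a median of 0.54. In albolineatus 55 of 71 were called with a median of 1.15, and the medians were 0.19, 0.18 and 0.55 in aesculapii, kyathit and nigrofasciatus. Cytosolic ribosomal protein genes, added likewise, had 77 of 79 tested, of which 26 rose and all 77 were above 0, with a median of 0.49. In albolineatus 68 of 77 were called (median 1.09), while in aesculapii 0 of 74 were called and 40 were above 0 (median 0.03). Of all genes tested in both aesculapii and kyathit, 69% were above 0 in aesculapii. The counts of rises on both lists depended on the scaling and on single libraries. With TMM factors 47 respiratory chain and 73 ribosomal genes rose, and with median-ratio factors 35 and 58. Leaving out single libraries gave 5 to 30 and 5 to 39, lowest without skin kyathit 3, where it was 5 for both. Against the other pigment-cell libraries, the mitochondrial list had a median of 1.59 with 13 of 13 called, the respiratory chain list −0.08 with none called, and the ribosomal list 0.39 with 19 called.

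Genes against oxidative damage and for detoxification had 28 of 49 members tested, of which 8 rose and none fell, with a median of 0.41. gstm.1 and gstp1, glutathione transferase genes, rose by 1.28 ± 0.20 (limma, adjusted p = 1.65e-05) and 1.42 ± 0.29 (adjusted p = 0.000481). The gstp1 values were 6147 to 23027 (median 16593) in the sorted libraries and 2727 to 10288 (median 5027.5) in skin. prdx5, of the peroxiredoxins, which reduce peroxides, was at 2924 to 16799 (median 6075) against 1284 to 6176 (median 2319), a difference of 1.2 ± 0.21 (adjusted p = 5.23e-05). prdx6 rose by 0.87 ± 0.18 (adjusted p = 0.000596), while the other 4, sod1, prdx2, gpx4b and aldh9a1a.1, had differences of 0.61 to 0.87 and each lost its call in 2 to 5 of the fits that left out 1 library. Without skin library 3 or 4 of kyathit 4 members were called. In the contrast with the other pigment-cell libraries gstm.1 and gstp1 differed by 0.28 (adjusted p = 0.343) and 0.34 (adjusted p = 0.462), and prdx5 by 0.63 (adjusted p = 0.0198).

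Other metabolic lists showed little, where 9.54% of all genes tested in the mean rose and 6.18% fell. None of 9 tested fatty acid oxidation genes passed (median 0.13), and 1 of 10 tested cholesterol genes did, npc2, a sterol transporter gene whose call was lost in 8 of the 24 fits that left out 1 library. With the replicate block the cholesterol synthesis genes hmgcs1 (−1.47, limma, adjusted p = 0.0188) and hmgcra (−1.59, adjusted p = 0.0368) were also called lower. Of 18 tested lysosome and endosome genes 4 rose, with a median of 0.47, but without the sorted aesculapii 3 and albolineatus 3 libraries 1 was called, without sorted aesculapii 3 or 4 alone none, without 7 other single libraries 1 to 2, and with TMM factors 10. Of 7 tested genes on a list of transcription factors written for pigment cells, pax7b and foxd3 rose and ets1 fell. ets1, described above as a gene of lymphocytes and endothelium, is not particular to pigment lineages. Which cells gave its RNA was not tested. foxd3, a neural crest gene, differed by 1.32 and lost its call without sorted aesculapii 4, sorted kyathit 5 or the skin libraries kyathit 3 or 4 (adjusted p up to 0.135). sox10, another neural crest gene, was at 1.0 and did not pass (adjusted p = 0.0535). With the replicate block it was at 1.05 and passed (adjusted p = 0.0266), and it also passed with TMM or median-ratio factors, a pseudocount of 100, equal weights, only the 24 libraries, a minimum of 2 molecules or no filter, with adjusted p of 0.00915 to 0.0494.

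**Figure D3:**
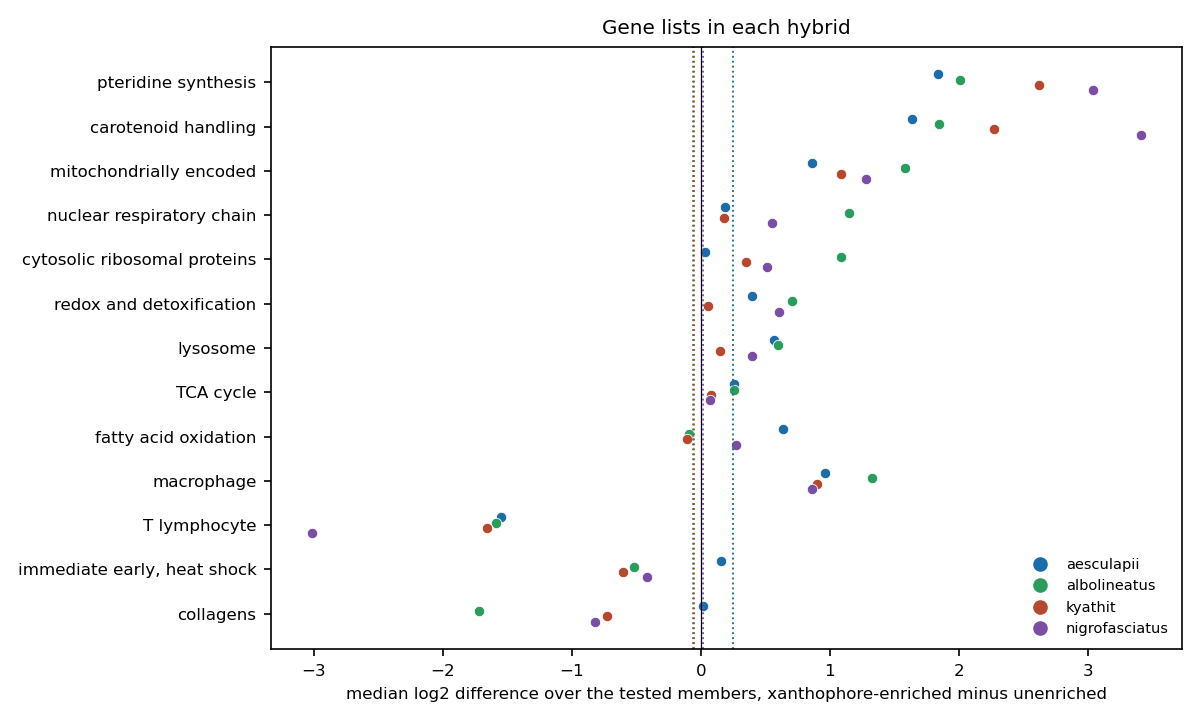
Median log2 difference, sorted minus skin, of 13 gene lists in each hybrid, with points coloured by hybrid and dotted lines for the median of all genes tested in that hybrid (0.25 in aesculapii, −0.06 in albolineatus, −0.05 in kyathit, 0.02 in nigrofasciatus). The pteridine and carotenoid lists lie above the dotted lines in all 4 hybrids, and the collagen list lies lowest in albolineatus, at −1.72.

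Immune genes were first taken as 1 list. On this list of 28 leukocyte genes, 21 were tested, 2 rose, 2 fell and the median was −0.02. Of all genes tested in the mean, 9.54% rose and 6.18% fell, so these counts were near the share over all genes. With TMM factors 7 rose and 1 fell, and when single libraries were left out 0 to 6 rose and 1 to 2 fell. A macrophage and a T lymphocyte list were then written after these values were seen, so their counts describe the values and support nothing. Of 16 tested macrophage genes 10 rose and none fell, with a median of 0.99. c1qa, of the complement component C1q, had sorted values of 1070, 1809 and 355 in aesculapii, 710, 1717 and 615 in albolineatus, 3930, 482 and 1394 in kyathit, and 2259, 732 and 1947 in nigrofasciatus. Its skin values were 364, 294 and 133 in aesculapii, 409, 149 and 101 in albolineatus, 578, 734 and 1079 in kyathit, and 1012, 261 and 543 in nigrofasciatus. Only in albolineatus did the groups not overlap, and the mean difference was 1.73 ± 0.36 (limma, adjusted p = 0.000733). mfap4, a marker of zebrafish macrophages, was at 217 to 1873 (median 742) against 84 to 489 (median 246.5), a difference of 1.52 ± 0.33 (adjusted p = 0.000815). mpeg1.1, a perforin gene of macrophages, did not pass, at 0.26 ± 0.44 (adjusted p = 0.719), with 495 to 8452 sorted and 544 to 2642 in skin. Its paralog mpeg1.2 had every sorted library below the skin mean in aesculapii, albolineatus and kyathit, and every one above it in nigrofasciatus. grn2, a granulin gene, had every sorted library below the skin mean in aesculapii, albolineatus and nigrofasciatus. The summed list took 0.143% to 1.11% of the sorted libraries (median 0.495%) and 0.124% to 0.502% of skin (median 0.247%). It took 0.618% to 1.71% of the melanophore-enriched and 0.042% to 0.32% of the iridophore-enriched libraries. A high level of these genes was thus not particular to the xanthophore-enriched libraries. Without the sorted aesculapii 3 and albolineatus 3 libraries 6 of the 10 were called, without sorted aesculapii 4 alone 2, when the adjusted p of c1qa was 0.0645, without sorted aesculapii 3 or skin kyathit 4 alone 6 each, and without replicate 3 or 4 of every group none.

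The T lymphocyte list went the other way. Of 15 tested members 13 fell and none rose, all 15 were below 0, and the median was −1.71. irf4b, a lymphocyte transcription factor gene, had sorted values of 320, 61 and 376 in aesculapii, 736, 609 and 462 in albolineatus, 840, 508 and 163 in kyathit, and 797, 112 and 308 in nigrofasciatus. Its skin values were 288, 851 and 229 in aesculapii, 1511, 2115 and 1785 in albolineatus, 2603, 2743 and 607 in kyathit, and 3255, 3665 and 1371 in nigrofasciatus. The groups overlapped in aesculapii and kyathit, and the difference was −2.09 ± 0.40 (limma, adjusted p = 0.000221). The sorted aesculapii value of 61 lay below the estimated worth of 1 molecule in that library, 182.8. sla2, an adaptor of T cell receptor signalling in mammals, was at 56 to 3165 (median 457) against 534 to 4199 (median 2539.5), and fell by 2.59 ± 0.53 on the log2 scale (adjusted p = 0.0006). tagapa, named for a GTPase activator of T cell activation, had 733 to 9675 (median 1933.5) against 1889 to 19499 (median 9125.5), a difference of −1.82 ± 0.36 (adjusted p = 0.000474). The summed list took 0.0555% to 0.485% of the sorted libraries (median 0.15%) and 0.121% to 0.888% of skin (median 0.514%). Within batches 3, 4 and 5 its median was −1.12, −1.79 and −1.27, and without library 3 or 4 of every group 5 of 17 and 0 of 11 tested members were called. Not every lymphocyte gene was below 0 within each batch. In the same order il2rga was at 0.29, −0.70 and −1.41, and cd4-1 at 1.06, −1.51 and 0.41. Against the other pigment-cell libraries, the median of 8 tested members was 0.76, with 2 higher and none lower.

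**Figure D4:**
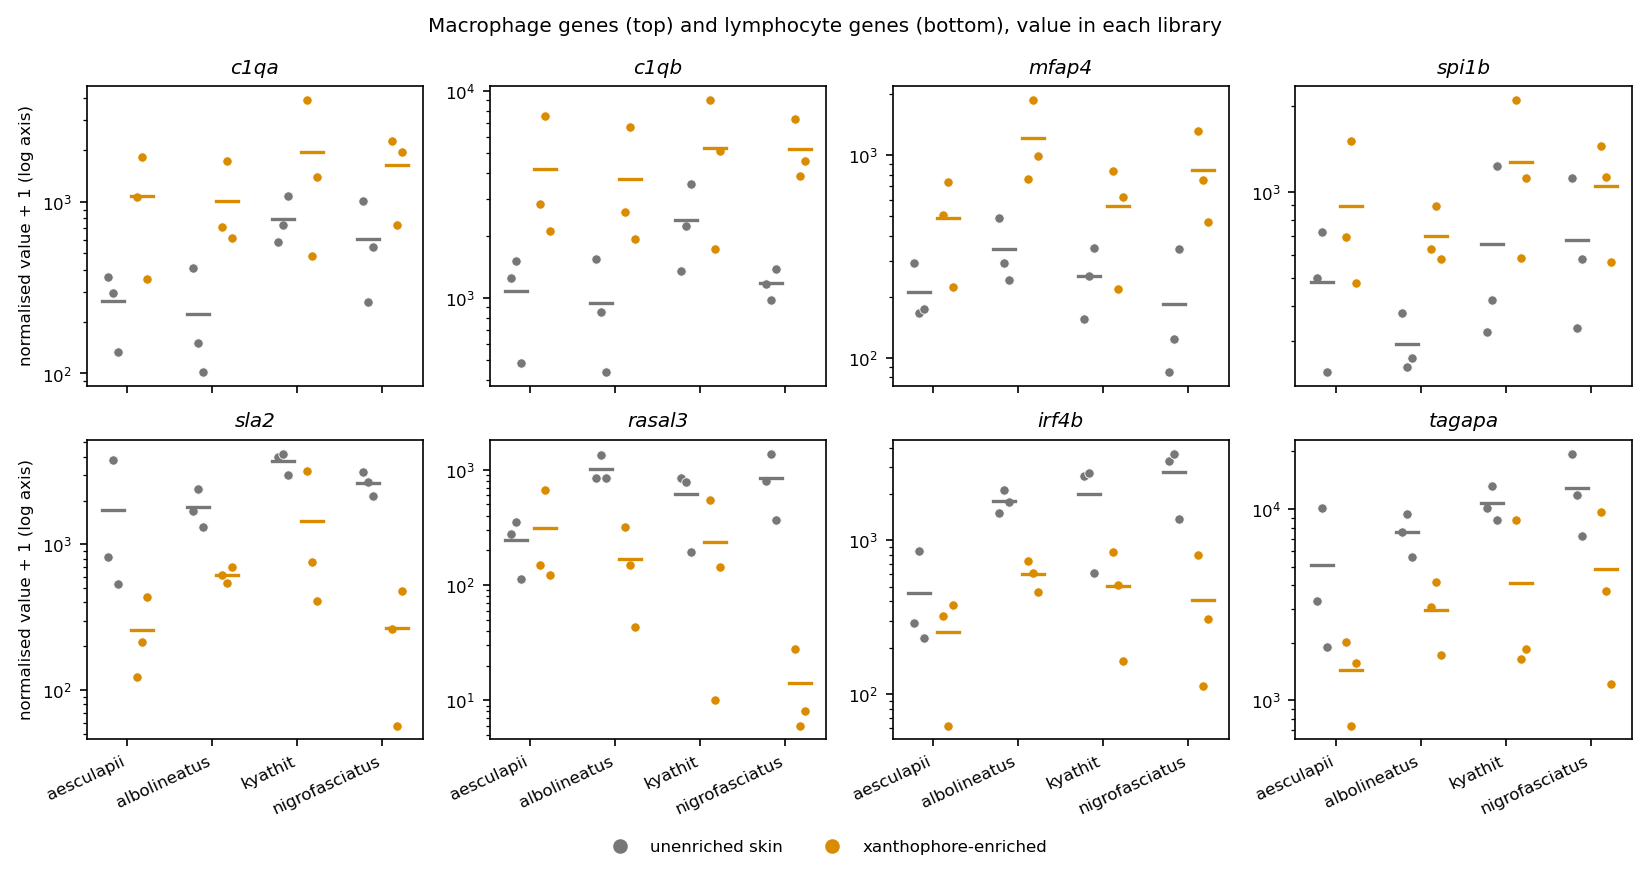
Summed values plus 1 (log axis) by hybrid, for macrophage genes c1qa, c1qb, mfap4 and spi1b in the upper panels and lymphocyte genes sla2, rasal3, irf4b and tagapa in the lower panels, with grey points for skin, orange points for sorted libraries and bars for the means of the 3. In c1qa the groups are apart only in albolineatus and in c1qb in 3 hybrids, and rasal3 lies at 5 to 27 in sorted nigrofasciatus against 368 to 1383 in skin.

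Among the genes that fell most, hbba1, a beta globin gene of red cells, was at 65 to 8649 (median 489) in the sorted libraries and 1947 to 59548 (median 5593) in skin, a difference of −3.43 ± 0.67 (limma, adjusted p = 0.000448), and its call was lost without library 4 of every group. All 12 sorted libraries were below their own skin mean, and of 4 tested erythrocyte genes 3 fell. rasal3, a Ras GTPase activator gene of mammalian blood cells, had 147, 671 and 121 in the sorted and 277, 348 and 112 in the skin libraries of aesculapii, a difference of −0.07. In nigrofasciatus it had 27, 5 and 7 in the sorted and 806, 1383 and 368 in the skin libraries. There 1 molecule was estimated at a value of 65.4 to 217.1 in the sorted libraries, above all 3 sorted values. The gene passed the filter through skin alone, and no size of difference is given for that hybrid. Its mean difference was −2.46 ± 0.38 (adjusted p = 8.27e-06), a size that depends on the pseudocount where sorted values are this low. adgrg1, an adhesion receptor gene found in human cytotoxic lymphocytes, fell by 2.47 ± 0.49 on the log2 scale (adjusted p = 0.000305), nt5c2l1, of a nucleotidase family, by 2.87 ± 0.56 (adjusted p = 0.000243), and nab1a, a corepressor of EGR factors, by 2.36 ± 0.51 (adjusted p = 0.000815). These 3 calls, too, were lost without library 4 of every group.

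Immediate early and heat shock genes, which dissociation of tissue is known to induce, had 44 of 54 members tested, of which 12 fell and 1 rose, with a median of −0.28. dusp2, a phosphatase gene induced in activated lymphocytes, was at 1418 to 5916 (median 2461) in the sorted libraries and 2526 to 12837 (median 9483) in skin, a difference of −1.71 ± 0.29 (limma, adjusted p = 4.94e-05). zfp36l1a, an mRNA decay factor gene, fell by 1.06 ± 0.20 on the log2 scale (adjusted p = 0.000133). egr2b, an early growth response gene, differed by −2.01 ± 0.47 (adjusted p = 0.00197), and nr4a1, a nuclear receptor gene, by −1.35 ± 0.31 (adjusted p = 0.00176). The list's median was 0.16 in aesculapii, −0.52 in albolineatus, −0.60 in kyathit and −0.42 in nigrofasciatus. Over all genes tested in both aesculapii and albolineatus, the aesculapii median was 0.24, so the list was not above it there. In the mean of the hybrids with TMM factors, 10 members of the list fell, 3 rose and its median was 0.00. Without sorted aesculapii 4 alone 6 fell, without skin kyathit 4 alone 7, and without replicate 3 or 4 of every group 2 and 1.

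Genes of connective tissue were compared with skin and with the other pigment-cell libraries. Of 21 tested fibroblast and scale genes 11 fell and none rose, with a median of −0.86, and of 20 tested collagen genes, a list added after values were seen that overlaps the first, 11 fell, with a median of −0.96. By hybrid the fibroblast median was −0.11 in aesculapii (8 of 20 tested above 0), −1.34 in albolineatus (12 of 21 called lower), −0.66 in kyathit (1 of 22) and −0.82 in nigrofasciatus (0 of 20), and the collagen median 0.02, −1.72, −0.73 and −0.82. In the sorted aesculapii library 5, 14 of 21 fibroblast and 14 of 20 collagen genes were above the skin mean. So were 74 of 77 ribosomal protein genes and 39 of 44 immediate early and heat shock genes, and the share over all genes was not counted for this library. By the aesculapii difference, 69% of all genes tested in both aesculapii and kyathit were above 0. In the contrast with the other pigment-cell libraries 13 of 19 fibroblast genes were higher (median 1.40). col1a1a, a type I collagen gene, had 34244, 18485 and 11090 in the sorted and 344297, 243284 and 181971 in the skin libraries of albolineatus, a difference of −3.73 (limma, adjusted p = 0.00014). In the other hybrids it differed by −0.13 in aesculapii, −1.38 in kyathit and −1.01 in nigrofasciatus, the mean difference was −1.57 ± 0.40 (adjusted p = 0.00588), and the difference from the other pigment-cell libraries was 1.53 (adjusted p = 0.00552). The collagens took 2.04% to 22.8% of the skin values (median 5.22%) and 0.854% to 8.14% of the sorted values (median 2.1%). With TMM factors 6 fibroblast and 7 collagen genes fell, without the sorted aesculapii 3 and albolineatus 3 libraries 5 of each. Without any 1 of sorted aesculapii 3 or 4, sorted kyathit 5 or sorted nigrofasciatus 4 or 5, 5 to 7 fibroblast and 6 to 8 collagen genes fell, and without replicates 3, 4 and 5 of every group 2, 0 and 1 fibroblast genes. Of 29 tested keratinocyte genes 3 rose and 2 fell (median −0.40). These counts were near the share over all genes tested in the mean, 9.54% higher and 6.18% lower. Those that rose were krt8, a keratin gene, anxa1a, an annexin gene, and icn, of the S100 family, by 0.63 to 1.07. The genes that fell were krt1-19d and perp, and these calls were lost in 8 and 17 of the 24 fits that left out 1 library.

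Taken hybrid by hybrid, the number of genes past the test differed widely. Aesculapii had none of 1846 tested (0%, with 63 at an unadjusted limma p under 0.05, or 3.41%). Albolineatus had 843 of 3273 (25.8%), 500 higher (15.3%) and 343 lower (10.5%), kyathit 52 of 4677 (1.11%), 26 each way (0.556%), and nigrofasciatus 69 of 3312 (2.08%), 53 higher (1.6%) and 16 lower (0.483%). The spread between libraries differed as well. The median SD of a gene's log2 value among 3 sorted libraries was 0.94 in aesculapii, 0.59 in albolineatus, 0.57 in kyathit and 0.80 in nigrofasciatus, and among 3 skin libraries 0.45, 0.24, 0.45 and 0.47. The skin libraries of albolineatus also had the most estimated molecules, 628142 to 996133, against 104787 to 601484 in the other hybrids. These calls also depended on the weights of the fit. With equal weights the counts of albolineatus and nigrofasciatus came much closer, while that of kyathit fell, as given at the end. The calls depended on single libraries, too. Leaving out 1 or more libraries at a time gave 0 to 1 genes in aesculapii, 43 to 857 in albolineatus, 0 to 193 in kyathit and 15 to 89 in nigrofasciatus. The single libraries that moved the count by over 1.5 times were sorted 4 (323) and 5 (515) and skin 4 (559) in albolineatus, sorted 3 (113), 4 (15) and 5 (4) and skin 3 (30), 4 (31) and 5 (193) in kyathit, and sorted 5 (40) and skin 4 (40) in nigrofasciatus.

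Some of the genes named for single hybrids had also passed in the mean, such as mtbl, col1a2 and prnpb. In albolineatus mtbl, a metallothionein gene, had 1354, 1628 and 1067 in the sorted and 186, 100 and 39 in the skin libraries, a difference of 3.64 (limma, adjusted p = 0.000108). Against the other pigment-cell libraries mtbl differed by −1.95. col1a2, of type I collagen, fell in albolineatus by 3.66 on the log2 scale, with 49215, 27336 and 19022 against 475745, 355011 and 264103. In nigrofasciatus prnpb had 4849, 2314 and 3788 against 263, 163 and 464, a difference of 3.49. In kyathit atp1a1a.3, a sodium pump subunit gene, had 27, 12 and 8 in the sorted and 577, 1350 and 110 in the skin libraries. There 1 molecule was estimated at a value of 42 to 81.2 in the sorted libraries, above all 3 sorted values. The gene passed the filter through skin alone, and no size of difference is given. The same held for 10 of the 26 genes called lower in kyathit and for 6 of the 16 called lower in nigrofasciatus, but for none of the 343 in albolineatus or the 186 in the mean.

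The hybrids share no library with one another, so their differences can be compared gene by gene. Over the 1693 genes tested in all 4, Pearson's r between hybrids was 0.62 for albolineatus and kyathit, 0.61 for albolineatus and nigrofasciatus, and 0.59 for kyathit and nigrofasciatus. Aesculapii correlated at 0.26 to 0.33 with the other 3. These are descriptions across genes, which are not independent, and sorts and libraries made alike are shared by all points. Of the genes that rose in albolineatus, 416 of the 449 tested in nigrofasciatus were also above 0 there (92.7%, against 50.4% of all tested genes), 415 of 495 in kyathit (83.8% against 47.9%) and 238 of 307 in aesculapii (77.5% against 68.6%). Of those that fell, 232 of 279 were below 0 in nigrofasciatus (83.2% against 49.6%) and 280 of 315 in kyathit (88.9% against 52.1%), but 58 of 185 in aesculapii (31.4% against 31.4%). All 20 genes that rose in kyathit and were tested in aesculapii were above 0 there (69% of all tested genes were), with a median of 1.39, and so were all 33 that rose in nigrofasciatus (68.9%), with a median of 1.24. Of the falls, 2 of 7 from kyathit (28.6% against 31%) and 2 of 4 from nigrofasciatus (50% against 31.1%) were below 0 in aesculapii.

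**Figure D5:**
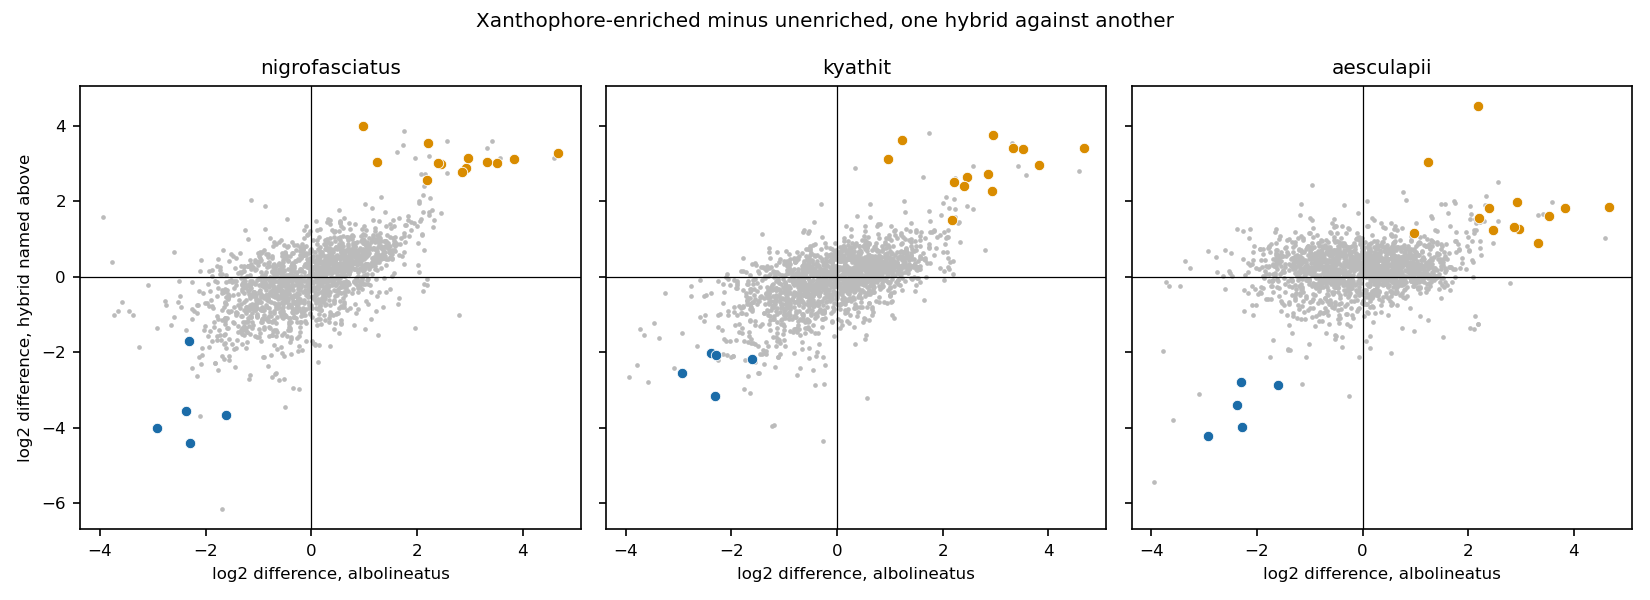
Log2 difference, sorted minus skin, in nigrofasciatus, kyathit and aesculapii (vertical axes) against albolineatus (horizontal axis) for 1693 genes tested in all 4 hybrids, with named genes that rose in the mean in orange and those that fell in blue. The points follow a rising band in nigrofasciatus (r = 0.61) and kyathit (r = 0.62) and a broader cloud in aesculapii (r = 0.26).

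Few genes passed any test of a difference between hybrids. The F test for unequal differences among the 4 hybrids called none of 3008 genes (limma, 161 at an unadjusted p under 0.05, or 5.35%, smallest adjusted p = 0.152). Of 335 listed or named genes, 39 had every sorted library above its skin mean in one hybrid and every one below in another. Such genes were not counted over all 3008 tested, so the 39 cannot be set against a share of all genes. cdh1, the epithelial cadherin gene, was one of the 39, with 3856, 1223 and 2474 sorted and 900, 653 and 944 in skin in aesculapii, and 78, 103 and 305 sorted and 744, 753 and 417 in skin in nigrofasciatus. Its differences were 1.43 and −1.86, but none of the 39 passed the F test and 6 had an unadjusted p under 0.05. The cdh1 value of 3856 came from the sorted aesculapii library 3, which resembled skin. That of 78 came from the sorted nigrofasciatus library 3 and lay below the estimated worth of 1 molecule there, 217.1. atf3, a stress-induced transcription factor gene, differed by 1.29 in aesculapii and −1.34 in kyathit, and scpp7, of the secretory calcium-binding phosphoproteins, by 3.61 in albolineatus and −2.72 in kyathit.

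Albolineatus against the mean of the other 3 hybrids gave 2 genes (0.0665%), both collagens and both lower. col6a1, of type VI collagen, had 597, 990 and 593 sorted and 4777, 5218 and 5298 in skin in albolineatus. It had 1934, 1445 and 4086 against 3283, 780 and 1072 in aesculapii, 445, 852 and 331 against 610, 515 and 710 in kyathit, and 3090, 1022 and 591 against 1009, 2648 and 1591 in nigrofasciatus. Its skin values in albolineatus were above those of all other hybrids, while its sorted values were within their range, and the difference between differences was −2.65 ± 0.53 (limma, adjusted p = 0.013). col5a2a, of type V collagen, had 1624, 2185 and 1251 sorted and 12439, 11881 and 10662 in skin in albolineatus, with a difference of differences of −2.39 ± 0.47 (adjusted p = 0.013). With TMM factors, or without the sorted aesculapii 3 and albolineatus 3 libraries, neither passed. The number called was also 0 without any 1 of sorted aesculapii 3, sorted albolineatus 4 or 5, skin albolineatus 4 or skin kyathit 4, 1 without sorted aesculapii 4, and 10, 8 and 6 without skin aesculapii 3, sorted albolineatus 3 or sorted nigrofasciatus 5. No gene passed for aesculapii, kyathit or nigrofasciatus against the other 3, with 215 (7.15%), 119 (3.96%) and 102 (3.39%) at an unadjusted limma p under 0.05.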

How the data were processed

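The files held, for 19629 genes, 96 columns of allele values from 48 libraries. Their unit is treated as a score: by their values they are allele counts that the authors divided by 1 size factor per column and rounded, so the deposited values are not raw counts, and no count test was run on them. The genome build GRCz11 and the tools DESeq2 1.44.0 and featureCounts stand in the submitters' processing notes with no role given. No sequences and no gene lengths were used here.

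The 2 allele values of a gene were added per library. The worth of 1 molecule was estimated in each library from the scatter of the paternal share between replicates, over genes with summed values of 300 to 3000 and a mean share of 0.2 to 0.8. limma 3.58.1 (R 4.3.3, statmod 1.5.0) was fitted to log2(value + 20) over all 48 libraries with 1 mean per group, precision weights (lowess span 0.3), a trend and robust variances. Contrasts were sorted minus skin in each hybrid, their mean, an F test of their equality, each hybrid against the other 3, and xanthophore-enriched minus the mean of the other sorted kinds. p-values were adjusted over all genes tested. Scripts were tested on simulated data. Figures were drawn with matplotlib 3.10.9 under Python 3.11.15.

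Named genes were, outside the marker lists and with 1 sign in all hybrids, the 15 largest rises and 12 largest falls of the mean, the 5 largest of each sign per hybrid, the 12 smallest p-values of the F test, and the 4 largest of each sign per hybrid against the others, besides up to 6 members a list and the genes without overlap in all hybrids. Other members named in the text were chosen after their values were seen. The comparison, the members and the lists were chosen with earlier results of these data known, and the macrophage, T lymphocyte, ribosomal, respiratory chain and collagen lists after values were seen.

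Replicates pair by label, since the number is also given as the batch. Deviations of same-numbered sorted and skin libraries from their group means correlated at 0.04 to 0.08 in kyathit and 0.18 to 0.29 in the other hybrids. Alternatives were other scalings, pseudocounts, filters, weights, the 24 libraries alone, the replicate block, and libraries left out.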

Additional observations from a re-analysis of the deposited data

Results flagged for a closer look

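Of the results above, 2 genes passed where the difference of sorted cells from skin in albolineatus was set against the mean of the other 3 hybrids. The F test among the hybrids called none, and neither of the 2 passed with TMM factors. col6a1 differed by −2.65 ± 0.53 (log2) between albolineatus and the mean of the other 3 hybrids (limma, adjusted p = 0.013). Its own differences were 0.52 in aesculapii, −2.77 in albolineatus, −0.24 in kyathit and −0.65 in nigrofasciatus, and the F test gave an adjusted p of 0.525. col5a2a differed by −2.39 ± 0.47 (adjusted p = 0.013), with differences of 0.14, −2.76, −0.52 and −0.74 in the same order and an adjusted p of 0.626 in the F test. Against the other pigment-cell libraries these genes differed by 1.57 and 0.92 in the mean of the hybrids. Groups of 3 libraries were too small to test for single outlying samples.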

How the results depend on the processing

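No listed or named gene that passed in the mean of the hybrids changed its direction under any alternative. Of 132 such genes, 121 to 132 stayed past the threshold under other scalings, pseudocounts, filters, weights, the 24 libraries alone or the replicate block, where they were tested (77 of 77 with a minimum of 15 molecules). When 1 library was left out, 83 were tested and stayed in each of the 24 fits, and 5 more stayed in every fit that tested them. Without replicate 3, 4 or 5 of every group 65 of 130, 35 of 125 and 95 of 128 stayed, and without the sorted aesculapii 3 and albolineatus 3 libraries, a choice made after seeing the data, 107 of 132.

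Counts of genes moved more. In the mean of the hybrids 473 became 778 with TMM factors, 788 with a minimum of 2 molecules, 207 with 15 and 3143 with no filter, of which 2766 were lower, and 64 to 572 when libraries were left out. In aesculapii 0 became 1 with a pseudocount of 100, 1 with a minimum of 2 molecules and 79 with no filter, and 0 to 1 with libraries left out. In albolineatus 843 became 383 with a minimum of 15, 3417 with no filter and 202 with equal weights, and 43 to 857 with libraries left out. TMM and median-ratio factors gave 941 (81.2% higher) and 884 (75.5%) there. In kyathit 52 became 125 and 17 with minimums of 2 and 15, 621 with no filter, 6 with equal weights, 30 with only the 24 libraries and 188 without the 2 skin libraries with high pigment markers, and 0 to 193 with libraries left out. In nigrofasciatus 69 became 117 with TMM factors, 192 with a minimum of 2, 722 with no filter and 139 with equal weights, and 15 to 89 with libraries left out. Against the other pigment-cell libraries 635 became 373 with a minimum of 15 and 1192 with no filter, and 250 to 647 with libraries left out.

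For albolineatus against the other 3, 2 became 0 with TMM factors, equal weights, only the 24 libraries or without the sorted aesculapii 3 and albolineatus 3 libraries, 12 with a pseudocount of 100, 4 with a minimum of 15 and 73 with no filter, and 0 to 10 with libraries left out. The 0 of aesculapii against the others became 1 with a minimum of 2, 3 with no filter, 1 with equal weights, and 0 to 3 with libraries left out. That of kyathit became 2 with a minimum of 2 and 0 to 13 with libraries left out, that of nigrofasciatus 15 with a minimum of 2, 65 with no filter and 0 to 2 with libraries left out, and that of the F test 23 with no filter and 0 with libraries left out. The causes were not tested.

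With the replicate block the counts were 2 in aesculapii, 906 in albolineatus, 74 in kyathit, 118 in nigrofasciatus, 589 in the mean, 884 against the other pigment-cell libraries, 1 and 6 for aesculapii and albolineatus against the others, and 1 in the F test. By the estimate, the sorted libraries stood for fewer molecules than skin in every hybrid, which limits what could be tested. The contrast with the other pigment-cell libraries has no value with only the 24 libraries.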
